A study of Mus musculus with 6 samples.

Results

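The genes examined here in mouse oral tumours encode sensors of foreign or misplaced nucleic acid and bacterial fragments inside cells, and the proteins that pass on the signal. They are Ddx58, Ifih1, Mavs, Tmem173, Tbk1, Ikbke, Nod1, Nod2, Nlrp3 and Casp1, chosen by symbol, and all 10 stand among the 770 genes of the deposited table. The tumours were primary oral squamous cell carcinomas induced in mice by 4NQO, a chemical carcinogen that both groups received. The label for strain gives only this model, and no genotype, age, dose or schedule is given in the sources used here. RNA came from formalin-fixed, paraffin-embedded tumours of mice given vehicle (3 samples) or agonistic anti-CD40, an antibody that activates the CD40 receptor of antigen-presenting cells (3 samples). Whether each sample is a different animal is not stated, so the p-values reflect variation among these 6 samples, some of which may be technical.

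RIG-I (Ddx58) and MDA5 (Ifih1) are helicases that bind viral or misplaced RNA in the cytosol and signal through the mitochondrial adaptor MAVS. STING (Tmem173), an adaptor of the endoplasmic reticulum, responds to a cyclic dinucleotide made when DNA appears in the cytosol. Both routes lead to the kinases TBK1 and IKKε (Ikbke), which activate IRF3 and so the type I interferon genes, and interferon in turn raises transcription of RIG-I and MDA5. NOD1 and NOD2 detect fragments of bacterial cell wall and activate NF-κB through the kinase RIPK2. NLRP3 assembles an inflammasome that activates caspase-1 (Casp1), the protease that matures interleukin-1β and interleukin-18.

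A promoter sequence from RefSeq (GRCm38.p6) was matched to 9 of the 10 genes by symbol, in 11 windows of 250 bases before and 50 bases from the annotated start; Tmem173 was not matched. The letters GAAA, any 2 bases and GAAA, the core of the element through which interferon-activated factors bind, were searched on both strands. They occurred in the windows of the RNA sensor genes Ifih1 and Ddx58 and in none of the 7 other genes matched. Both matches lie just after the annotated start, in the transcribed part. They are shown because both genes were highest in the same library, vehicle 1, as described below. Tbk1, Ikbke and Casp1 were also highest in vehicle 1 and held no match. Whether the letters bear on these levels was not tested. The match is in capitals, 5′ to 3′ on the gene's strand, with 8 bases on either side.
Ifih1: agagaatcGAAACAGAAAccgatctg
Ddx58: tgaggcagTTTCGATTTCctatggcc
The Ifih1 stretch is chr2:62646206-62646231 on the minus strand, with the match at bases 33 to 42 counted from 1 at the start. The Ddx58 stretch is chr4:40239806-40239831 on the minus strand, with the match at bases 3 to 12 and read on the opposite strand. The same letters occurred in 3.44% of all 32851 RefSeq promoter windows and in 7.19% of the 695 windows of genes in the table. A list of interferon-stimulated targets, Ddx58 and Ifih1 included, held them in 11 of 20 genes matched, and the list of NOD receptor and NF-κB genes in 0 of 11. These counts are of genes with a match in any window, whereas the shares above are of windows. The κB-like letters GGG, any 2 bases and TTTCC, found in 1.63% of all windows and 6.04% of those of genes in the table, were in none of the 11 windows. The letters TTC, any 3 bases and GAA, typical of sites for STAT factors and found in 8.3% and 11.9% of these windows, were in 1 window of Nod1. A match describes letters only.

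Values below are log2 normalized counts, listed for replicates 1, 2 and 3 of a group, and each difference subtracts the vehicle mean from the anti-CD40 mean. The recovered whole counts of a library added up to 333400 to 578598. The background limit of each library was set at 2 SD over the mean count of its 8 negative controls. Of the 10 genes, 9 were above background in all 6 libraries, with recovered counts from 57 to 841, and Nlrp3 was above it in 3. Of the 6 measured squamous epithelial markers, 5 (Epcam, Cdh1, Itgb4, Itga6 and Egfr) were above background in every library and Cd44 in 5 of 6. Vehicle 3 had the lowest value of all libraries for 41.6% of the 770 genes, and vehicle 1 and vehicle 2 the highest for 22.3% and 26.1%.

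None of the 10 genes passed the test between the groups, and the groups overlapped for all but Mavs. Limma, fitted to all 770 genes with Benjamini-Hochberg adjustment, called 0 genes at an adjusted p of 0.05, which is 0% of the table. At an unadjusted p under 0.05 it named 25 genes (3.25%), none of them among the 10, and limma-voom on the recovered counts called 0 and named 26. Ikbke lay lower in anti-CD40 tumours by 0.52 (fold 0.699) and Mavs higher by 0.34 (fold 1.26), and these had the lowest p of the 10. In the mean 5 genes were higher and 5 lower, with a median difference of −0.071, beside 420 higher and 350 lower and a median of 0.038 over all genes. That split was 8 higher and 2 lower without vehicle 1 and 2 higher and 8 lower without vehicle 3. In bulk tissue fewer cells of a type and less RNA per cell cannot be told apart.

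**Figure D1:**
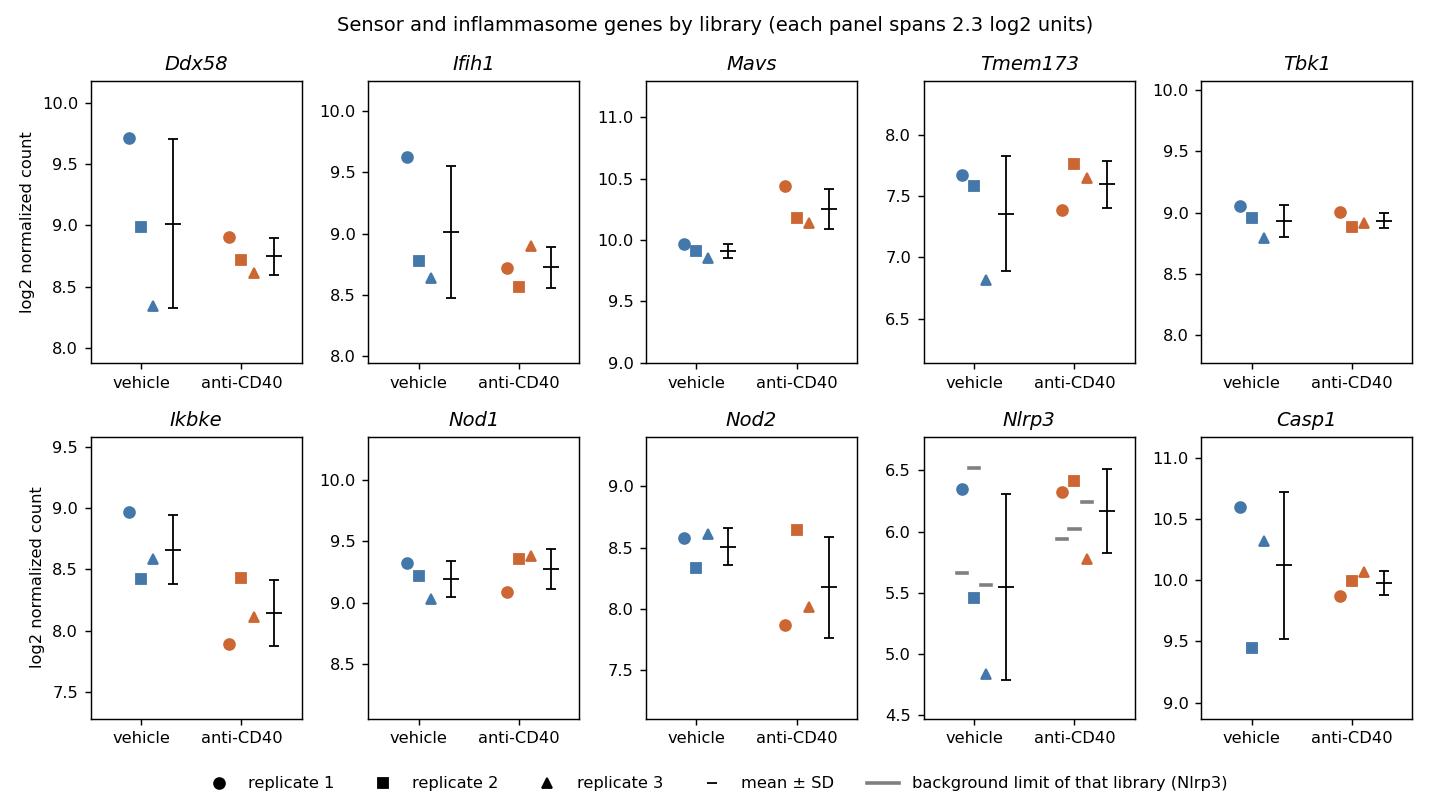
Log2 normalized counts (vertical axis) of the 10 genes in the 3 vehicle (blue) and 3 anti-CD40 (orange) libraries; symbols mark the replicate, black bars the mean ± SD (n = 3), and grey dashes in the Nlrp3 panel each library's background limit. The groups are apart for Mavs only, whereas Ddx58 and Ifih1 have 1 high vehicle library and Tbk1 spans 0.26 over all 6 libraries.

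The RNA sensor genes were high in 1 vehicle tumour. Ddx58, which encodes RIG-I, was 9.71, 8.99 and 8.34 in vehicle and 8.91, 8.72 and 8.61 in anti-CD40 libraries. Vehicle 1 was the highest and vehicle 3 the lowest of the 6, so the anti-CD40 values lay within the vehicle range. The group values were 9.01 ± 0.69 and 8.75 ± 0.15 (SD, n = 3), a difference of −0.27 (SE 0.36, 95% interval −1.10 to 0.57) with a limma adjusted p of 0.974. Ifih1, which encodes MDA5, was 9.63, 8.77 and 8.64 in vehicle and 8.72, 8.56 and 8.90 in anti-CD40 libraries. Again vehicle 1 stood highest, and the 5 other libraries lay between 8.56 and 8.90. The difference was −0.29 (SE 0.31, 95% interval −1.01 to 0.43, limma adjusted p of 0.974). Without vehicle 1 the difference was 0.084 for Ddx58 and 0.018 for Ifih1, and without vehicle 3 it was −0.60 and −0.48.

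The distance between the RNA sensors within a library had a similar mean in both groups but varied among libraries. Ddx58 minus Ifih1 was 0.084, 0.21 and −0.30 in vehicle and 0.19, 0.16 and −0.29 in anti-CD40 libraries, so the third replicate of each group was low. The group means of this within-library difference were −0.0024 ± 0.27 and 0.020 ± 0.27 (SD, n = 3), 0.022 apart. In the anti-CD40 group its SD was larger than that of Ddx58 (0.15) or Ifih1 (0.17).

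The adaptor genes had higher means in anti-CD40 tumours. Mavs was 9.97, 9.91 and 9.85 in vehicle and 10.44, 10.18 and 10.13 in anti-CD40 libraries. Every anti-CD40 value was above every vehicle value, the only such gene of the 10, where 6.75% of the 770 genes were apart in this direction and 10.3% in either. The means were 9.91 ± 0.058 and 10.25 ± 0.16 (SD, n = 3), a difference of 0.34 (SE 0.21, 95% interval −0.15 to 0.83, limma adjusted p of 0.974). With any 1 library left out it was between 0.25 and 0.40. Its SE was larger than the SDs alone would give, because limma draws each gene's variance towards that of all genes. Tmem173, which encodes STING, was 7.68, 7.58 and 6.82 in vehicle and 7.38, 7.76 and 7.65 in anti-CD40 libraries. Only vehicle 3 was apart from the rest. The difference of 0.24 (SE 0.29, 95% interval −0.45 to 0.92, limma adjusted p of 0.974) was −0.032 without vehicle 3.

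The kinases that the adaptors share differed from each other in their pattern. Tbk1 was 9.05, 8.96 and 8.80 in vehicle and 9.01, 8.89 and 8.92 in anti-CD40 libraries, the narrowest range of the 10 genes. The difference was 0.0016 (SE 0.21), and the 95% interval from −0.48 to 0.48 leaves room for a change in either direction. Ikbke, which encodes the interferon- and NF-κB-inducible relative IKKε, was 8.97, 8.42 and 8.59 in vehicle and 7.89, 8.43 and 8.11 in anti-CD40 libraries. The groups met only where anti-CD40 2 stood level with vehicle 2. The means were 8.66 ± 0.28 and 8.14 ± 0.27 (SD, n = 3), a difference of −0.52 (SE 0.26, 95% interval −1.12 to 0.084). Its unadjusted p of 0.082 ranked 55 among the 770 genes, and its limma adjusted p was 0.974. With 1 library left out the difference lay between −0.66 and −0.36.

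Ikbke minus Tbk1, which removes any scaling common to a library, was −0.082, −0.54 and −0.21 in vehicle and −1.11, −0.46 and −0.81 in anti-CD40 libraries. The groups overlapped through vehicle 2 and anti-CD40 2. The group means of this difference were −0.28 ± 0.23 and −0.79 ± 0.33 (SD, n = 3). An exact two-sided permutation test gave p = 0.2, where 3 against 3 cannot go below 0.1, and 0.45 after Benjamini-Hochberg adjustment over the 3 pairs of related genes compared. These pairs were chosen after their values were seen. For Ddx58 and Ifih1 the exact test gave p = 0.9 (adjusted 0.9).

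**Figure D2:**
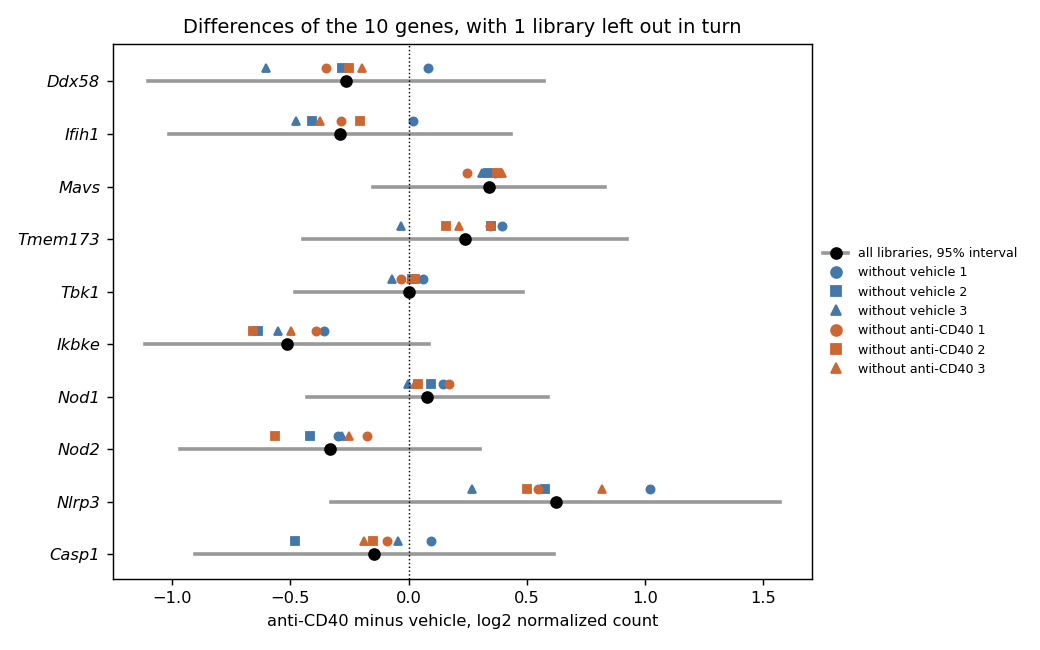
Anti-CD40 minus vehicle difference (horizontal axis, log2 normalized count) of the 10 genes: black points with grey 95% intervals use all 6 libraries, and small symbols above them leave out 1 library. All 10 intervals include 0; the small symbols stay on the same side of 0 for Mavs, Ikbke, Nod2 and Nlrp3 and cross it for the 6 other genes.

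The receptors for cell wall fragments gave a similar picture, with 1 steady and 1 more variable gene. Nod1 was 9.32, 9.22 and 9.03 in vehicle and 9.08, 9.35 and 9.38 in anti-CD40 libraries. The groups overlapped only through anti-CD40 1, while anti-CD40 2 and 3 lay above all vehicle libraries. The difference was 0.079 (SE 0.22, 95% interval −0.43 to 0.59). Nod2 was 8.58, 8.34 and 8.61 in vehicle and 7.87, 8.64 and 8.02 in anti-CD40 libraries. Anti-CD40 1 and 3 lay below all vehicle libraries and anti-CD40 2 above them. The difference was −0.33 (SE 0.27, 95% interval −0.97 to 0.30, limma adjusted p of 0.974), −0.18 without anti-CD40 1 and −0.57 without anti-CD40 2. Nod2 minus Nod1 within a library averaged −0.68 ± 0.24 in the vehicle group and −1.09 ± 0.34 in the anti-CD40 group (SD, n = 3; exact permutation p = 0.3, adjusted 0.45). The same anti-CD40 libraries, 1 and 3, also had the lowest 2 values of Ikbke. They were lowest too for the summed level of squamous epithelial markers (13.67 and 13.63). The same held for the summed T cell (9.07 and 9.38) and dendritic cell markers (7.22 and 7.65).

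**Figure D3:**
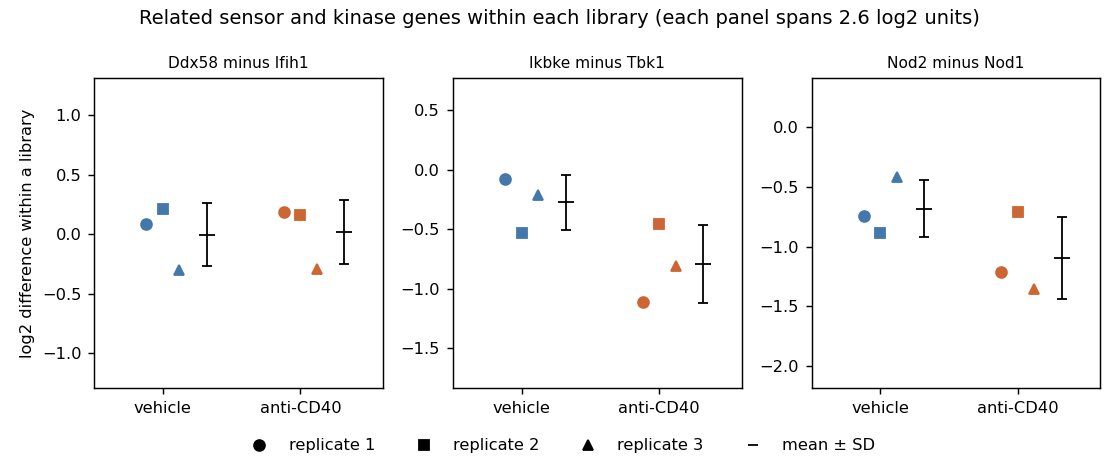
Differences within a library (vertical axis, log2 units) between related genes: Ddx58 minus Ifih1, Ikbke minus Tbk1 and Nod2 minus Nod1, with replicates as symbols and mean ± SD (n = 3) as black bars. Ikbke minus Tbk1 reaches −1.11 in anti-CD40 1, while anti-CD40 2 stays among the vehicle values in the Ikbke and Nod2 panels.

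Of the inflammasome genes, Nlrp3 lay near background and Casp1 well above it. Nlrp3 had recovered counts of 42, 12 and 14 in vehicle and 33, 33 and 18 in anti-CD40 libraries, against background limits of 24.7 to 26.6. It was thus above background in vehicle 1 and anti-CD40 1 and 2 only. Its log2 values were 6.35, 5.46 and 4.84 in vehicle and 6.32, 6.41 and 5.78 in anti-CD40 libraries. The difference of 0.62 (SE 0.41, 95% interval −0.33 to 1.57, limma adjusted p of 0.974) was 0.27 without vehicle 3 and 1.02 without vehicle 1. Below background a value measures little of the gene, so this difference is not resolved at this depth. Casp1 was 10.60, 9.45 and 10.32 in vehicle and 9.87, 9.99 and 10.06 in anti-CD40 libraries. Vehicle 2 was low and vehicle 1 high, and the anti-CD40 values lay between them. The difference was −0.14 (SE 0.32, 95% interval −0.90 to 0.62), 0.093 without vehicle 1 and −0.48 without vehicle 2.

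The SD was larger in vehicle than in anti-CD40 tumours for 7 of the 10 genes, beside 59.4% of all genes. Vehicle 1 held the highest value of 5 of the 10 (Ddx58, Ifih1, Tbk1, Ikbke and Casp1) and vehicle 3 the lowest value of 6. The summed level of the 6 measured macrophage markers was 11.82, 11.88 and 11.10 in vehicle and 11.91, 11.85 and 11.72 in anti-CD40 libraries, lowest in vehicle 3. All 6 of those markers were above background in every library. The endothelial, fibroblast and B cell sums were lowest in vehicle 3 too, at 11.94, 13.99 and 7.28, as were 41.6% of all genes. Of the 5 B cell markers, 0 were above background in every library. The summed level of the 7 T cell markers, of which 4 were above background in every library, ran from 9.70 to 10.15 in vehicle and from 9.07 to 9.92 in anti-CD40 libraries, with the highest in vehicle 1. That of the 7 measured granulocyte markers, of which 2 (S100a8 and Lcn2) were above background in every library, was mostly S100a8. It ran from 14.81 to 17.16 and from 14.81 to 17.21, low in the third replicate of each group. Among the other granulocyte markers, Camp, Mpo and Ltf were lowest in vehicle 1, at 4.27, 5.55 and 5.0. Elane, Csf3r and Lcn2 were lowest in vehicle 3, at 4.84, 5.22 and 7.79. Only the Lcn2 value lay above the background limit, which was 5.665 in vehicle 1 and 5.567 in vehicle 3. Of the 3 measured dendritic cell markers, Itgax was above background in 5 libraries, Flt3 in 4 and Xcr1 in 0. Their summed level ran from 7.71 to 8.32 in vehicle and from 7.22 to 8.01 in anti-CD40 libraries. Of all the cell type markers, only Flt3 and the T cell marker Cd5 had a limma unadjusted p under 0.05, as did 3.25% of all genes. Flt3 differed by −0.75 (limma unadjusted p of 0.0367) and Cd5 by −0.83 (limma unadjusted p of 0.00801), both with an adjusted p of 0.974. The part of these cells in the values of the 10 genes was not tested.

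Around the sensors, 20 genes of RIG-I-like receptor and STING signalling were measured, all above background in every library. Limma called 0 in either direction, 9 were higher and 11 lower in the mean, and the median difference was −0.015, from −0.11 without vehicle 2 to 0.039 without vehicle 1. Besides Mavs, Cyld, a deubiquitinase that restrains RIG-I signalling, had groups that did not overlap (8.79, 8.92 and 8.64 against 9.06, 8.93 and 9.06). These make 2 of 20, beside 6.75% of all genes apart in this direction. The ubiquitin ligase gene Traf3, which links MAVS to the kinases, differed by 0.27, with vehicle 2 low at 7.99 and the 5 other libraries between 8.90 and 9.12. The ubiquitin-like modifier gene Isg15 was 10.36, 9.14 and 8.26 in vehicle and 8.16, 8.70 and 8.51 in anti-CD40 libraries. Zbp1, a sensor of Z-form nucleic acid, was 9.18, 7.99 and 7.80 and then 6.95, 7.89 and 8.05. Vehicle 1 was the highest library for Isg15 and Zbp1, as it was for Ddx58 and Ifih1.

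The interferon genes at the end of these routes were not detected above background. Ifnb1, Ifna1, Ifna2, Ifna4 and Ifnl2, as well as Ifng, the type II interferon of lymphocytes, were above background in 0 of 6 libraries, whereas the receptor genes Ifnar1, Ifnar2 and Ifngr1 were above it in all 6. Ifnar1 differed by −0.036, Ifnar2 by 0.13 and Ifngr1 by 0.36. Over the 9 genes measured, limma called 0, 4 were higher and 5 lower, and the median difference was −0.025. That median is the value of Ifna1, which was under background in all 6 libraries. Over the genes above background in at least 3 libraries the median was 0.13. Over all 9 it was 0.12 without vehicle 2, 0.077 without anti-CD40 3, 0.055 without anti-CD40 1 and −0.11 without anti-CD40 2.

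Interferon-stimulated targets showed the same high library as the RNA sensors. Of 27 measured, Ddx58 and Ifih1 included, 19 had their highest value in vehicle 1. Limma called 0, 6 were higher and 21 lower in the mean, and the median difference was −0.29. Leaving out vehicle 1 gave −0.00083, leaving out vehicle 3 gave −0.60 and leaving out anti-CD40 3 gave −0.50. The SD was larger in vehicle for 25 of the 27. Stat2, a subunit of the factor that interferon activates, was 10.02, 9.34 and 9.01 in vehicle and 8.98, 8.90 and 8.93 in anti-CD40 libraries, and was the only target of the 27 whose groups did not overlap, where 3.51% of all genes were apart in this direction. Isg20, an exonuclease gene, went another way, at 8.92, 10.94 and 9.67 in vehicle and 11.19, 10.36 and 9.23 in anti-CD40 libraries. The target Ifi27 differed by 0.18.

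**Figure D4:**
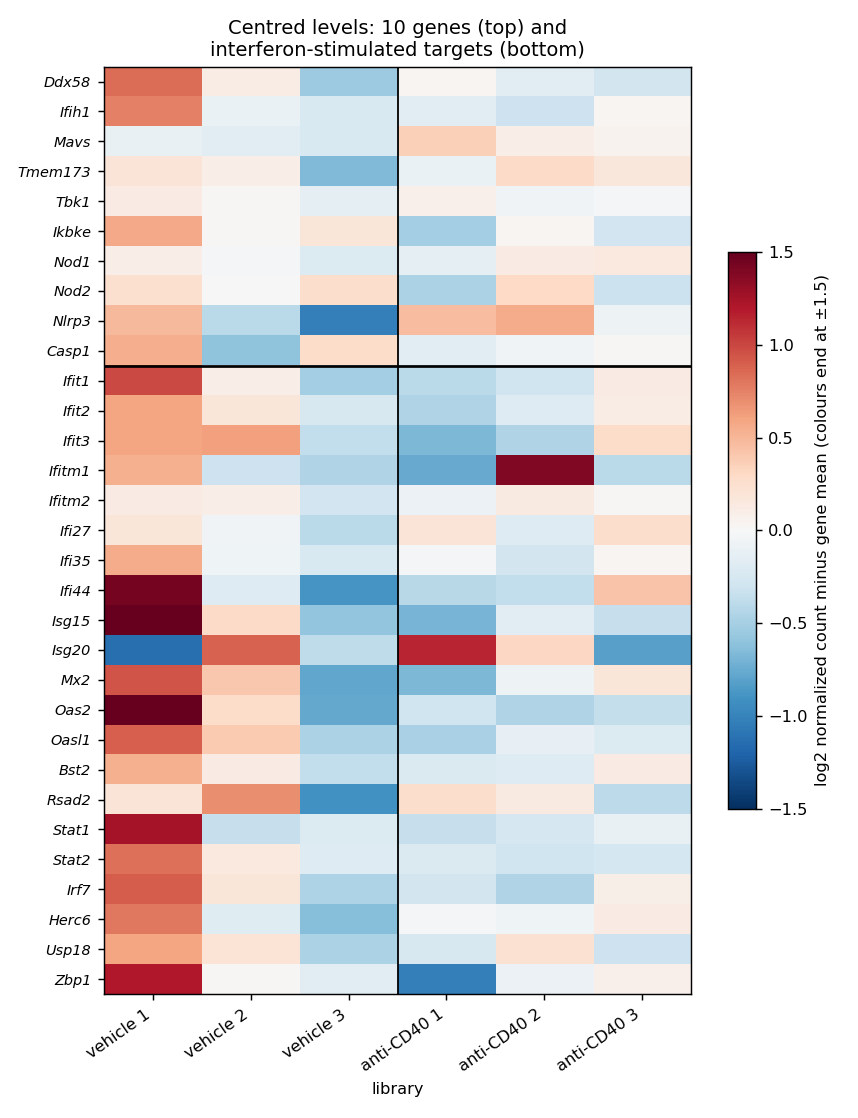
Log2 normalized counts minus each gene's mean over the 6 libraries (colour scale from −1.5, blue, to 1.5, red) for the 10 genes above the black line and 21 interferon-stimulated targets, above background in every library, below it. The vehicle 1 column is red for Ddx58, Ifih1 and most targets, with Isg20 as the clearest exception.

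In the NOD and NF-κB list, 16 genes were measured, limma called 0, 7 were higher and 9 lower, and the median difference was −0.023, from −0.095 without vehicle 3 to 0.013 without vehicle 1. Ripk2, the kinase that NOD1 and NOD2 use, was 8.25, 8.08 and 7.91 in vehicle and 7.72, 7.78 and 7.78 in anti-CD40 libraries, groups that did not overlap. Tab1, a partner of the kinase TAK1, was the other gene of the list with groups apart, at a difference of −0.29. Ripk2 and Tab1 were picked after their values were seen. They make 2 of 16, where 3.51% of the 770 genes were apart in this direction. The NF-κB subunit genes Nfkb1 and Rela differed by 0.21 and 0.13, and Rel by −0.55. Tnfaip3, an inhibitor of the pathway, differed by −0.63, with anti-CD40 3 lowest at 7.43.

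Of 16 inflammasome and interleukin-1 genes, limma called 0, 5 were higher and 11 lower, and the median difference was −0.13. With 1 library left out it ranged from −0.25 without vehicle 2 to −0.065 without vehicle 1, and it was −0.23 without anti-CD40 2. Pycard, which encodes the adaptor ASC between NLRP3 and caspase-1, was 7.62, 7.43 and 8.25 in vehicle and 7.53, 7.97 and 7.43 in anti-CD40 libraries. The caspase-1 substrate gene Il1b was 9.48, 9.01 and 8.0 in vehicle and 6.84, 10.18 and 7.28 in anti-CD40 libraries, and thus spread most within the anti-CD40 group. Il18 was 9.94, 9.13 and 9.44 and then 9.22, 9.16 and 9.54. These 3 were chosen as the partners and substrates of the inflammasome after their values were seen. The receptor antagonist gene Il1rn differed by −0.66 and Il1a by −0.47, while the receptor genes Il1r1 and Il1rl1 differed by 0.25 and 0.94. For Il1rl1 that rests on anti-CD40 2, at 9.52 beside 7.0 and 7.03.

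Toll-like receptors sense microbial products and nucleic acid from endosomes and the cell surface. Their list, which also holds adaptors and kinases, had more genes higher than lower, but the receptors alone did not. Tlr4, Tlr5, Tlr7 and Tlr8 were higher in the mean, and Tlr1, Tlr2, Tlr3, Tlr6 and Tlr9 lower. Among the adaptors and kinases, Irak1, Irak2, Irak3, Myd88, Ticam1, Ticam2 and Tirap were higher and Irak4 lower. Of 17 measured, limma called 0, and 11 were higher and 6 lower. The median difference of 0.14 was 0.013 without vehicle 3 and 0.28 without vehicle 1, the ends of its range with 1 library left out. The groups were apart, with anti-CD40 higher, for 6 of the 17, beside 6.75% of all genes, and 54.5% of all genes were higher in the mean. These 6 were Tlr4, Tlr7, Tlr8, Irak1, Irak3 and Ticam2. Vehicle 3 was the lowest library for all of them but Tlr4, as it was for 41.6% of all genes. Irak3, an inhibitor of the pathway, differed by 0.62 and the RNA receptor gene Tlr7 by 0.54, with unadjusted p of 0.0203 and 0.0625 from limma (both adjusted 0.974). Tlr9, a receptor for DNA, differed by −0.20 and Tlr2 by −0.22.

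Profiles most like those of the 3 most variable genes above background in all libraries were sought among 522 other such genes. Likeness was the root mean square difference over the 6 libraries after each gene was centred on its mean. Nearest to Ddx58 outside the 10 were Xaf1, an interferon-induced apoptosis gene (0.12), the helicase gene Ddx60 (0.15) and the CCR7 ligand gene Ccl21a (0.15). Nearest to Ifih1 were the immunoproteasome gene Psmb10 (0.065), Ifi35, an interferon-induced gene (0.10), and H2-T23, which encodes the nonclassical class I molecule Qa-1 (0.11). Ifih1 ranked 15 for likeness to Ddx58, at 0.22, and Ddx58 ranked 27 for likeness to Ifih1. Nearest to Casp1 were the class I gene H2-D1 (0.14), the housekeeping gene Hprt (0.16) and Traf6 (0.17), an adaptor ligase of Toll-like and interleukin-1 receptors. Hprt was 12.75, 11.98 and 12.41 in vehicle and 12.31, 12.21 and 12.29 in anti-CD40 libraries, so its lowest library was vehicle 2, like that of Casp1. For Mavs the distance to Ddx58 was 0.47 and to Ifih1 0.44, so the adaptor did not share the profile of its sensors.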

How the data were processed

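The single table that the authors deposited holds log2 normalized counts in 784 rows: 770 genes, 6 positive controls and 8 negative controls, judged by their names. RNA was extracted from fixed tumour tissue per the labels' protocols. The platform, counting software and normalization were not given in the sources used here. Each of the 4704 deposited log2 values could be turned back into a whole count, to within 0.05, by removing an offset of 4.55 and dividing by a factor of its library. The offset understates differences of genes with few counts. Groups were compared with limma 3.58.1 (lmFit and eBayes) in R 4.3.3 on the deposited values, two-sided, with Benjamini-Hochberg adjustment over 770 genes and a threshold of 0.05. The procedure was tested on simulated data. Summaries used pandas 2.3.3 under Python 3.11.15, and plots matplotlib 3.10.9.

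The members and lists were chosen with earlier results of these data known. Besides the 10 members, the genes named were, per pathway list, up to 2 per direction of lowest p above background in all libraries, and the 3 most similar profiles of the 3 most variable members. Ripk2, Tab1, Pycard, Il1b and Il18 were added after their values were seen and are marked. Cell type markers were named outside this rule, as were genes given to complete a list or to show which groups were apart. Symbols and promoters were matched to RefSeq tables of GRCm38.p6, where 9 members are current symbols and Tmem173 is a synonym. The deposited table names no genome build. Alternatives were limma-voom on recovered counts, trend with robust fitting, quantile normalization, centring on 20 housekeeping genes, an offset of 1, a background filter, the replicate number as a block and leaving out each sample.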

Additional observations from a re-analysis of the deposited data

How the results depend on the processing

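Limma called 0 genes under every alternative, with a lowest adjusted p of 0.208 (without anti-CD40 2). At an unadjusted p under 0.05 it named 52 genes after quantile normalization, beside 25. Of 70 member differences under the 7 alternatives that kept all samples, 69 kept their direction and none was called. The exception was Tbk1, at −0.022 after quantile normalization. With 1 library left out, the difference ranged from −0.60 to 0.084 for Ddx58, −0.48 to 0.018 for Ifih1, 0.25 to 0.40 for Mavs, −0.032 to 0.40 for Tmem173, −0.068 to 0.061 for Tbk1, −0.66 to −0.36 for Ikbke, −0.00046 to 0.17 for Nod1, −0.57 to −0.18 for Nod2, 0.27 to 1.02 for Nlrp3 and −0.48 to 0.093 for Casp1. The sign turned for Ddx58, Ifih1 and Casp1 without vehicle 1, for Tmem173, Tbk1 and Nod1 without vehicle 3, and for Tbk1 (−0.034) without anti-CD40 1. Deviations of same-numbered samples from their group means correlated at −0.43, 0.069 and 0.28, and those of differently numbered samples at −0.56 to 0.48. With 3 samples per group these correlations cannot decide whether the replicate numbers pair the samples. With the replicate block limma called 0 genes and named 32 at an unadjusted p under 0.05. Depth limits Nlrp3 most, with 12 to 42 counts.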
